A study of Homo sapiens with 6 samples.

Results

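The S100 and annexin genes are 2 families of calcium-binding proteins, and 27 protein-coding rows of the 31016 genes in the deposited table carry such a name. The members were chosen by gene name and biotype alone, with no measured value used. They comprise 15 S100 genes (S100A1 to S100A6, S100A8 to S100A11, S100A13, S100A14, S100A16, S100P and S100Z) and 12 annexin genes (ANXA1 to ANXA11 and ANXA8L1). Poly(A) RNA was sequenced from DLD-1, an established human colorectal adenocarcinoma line. The libraries labelled TGFb 1 to 3 came from cells given TGF-β, a cytokine that moves epithelial cells towards a migratory state. The libraries labelled TGFb_TFA 1 to 3 came from cells that also received TFA, a preparation of the flavones of Abelmoschus manihot, a plant of the mallow family. All 6 libraries therefore carry TGF-β, and no untreated library was analysed here, so the response of the members to TGF-β itself was not measured. The sources used here give no dose of either agent. In both groups the treatment label gives 24 hours to library 1, 25 to library 2 and 26 to library 3, so hours, as labelled, run with the replicate number. The series' design text gives 24 hours only, and the sources used here do not settle which is right. The labels do not say whether the libraries came from separate cultures, so p-values measure the spread between these libraries, which may be technical.

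S100 proteins are small EF-hand proteins that mostly work as dimers. Calcium opens a hydrophobic face on them, which then grips partner proteins. Annexins bind the acidic phospholipids of membranes in a calcium-dependent way through a repeated core domain, and act in membrane traffic, membrane repair and the binding of actin to membranes. The families meet in fixed pairs. S100A10, which has lost calcium binding, holds the N-terminal tails of ANXA2 in a complex at the plasma membrane, and S100A11 binds the tail of ANXA1. In the gut epithelium and its tumours, S100A4, S100A6, S100A14, S100P and ANXA2 are known as abundant genes that are often studied in migration and metastasis.

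The comparison asked whether adding TFA to TGF-β changed the level of these genes. None of the 24 members that could be tested was called higher or lower at an adjusted p under 0.05 in edgeR's quasi-likelihood test, where 0.0109% of the 18265 genes tested were called in either direction. No member had an unadjusted p under 0.05 either, against 1.83% of all genes tested. The groups overlapped for every tested member, whereas 7.91% of all genes had groups that did not overlap, 4.58% with TGFb_TFA higher and 3.33% with it lower. DESeq2 called 0.0702% of the genes it adjusted and no member. The members' levels did differ between libraries. In depth-scaled counts, most S100 genes were highest in 1 library, TGFb_TFA 3, which was the highest for 28.6% of all genes tested. Without that library, 10 of the 12 fitted differences above 0 turned below 0. TGFb_TFA 3 was singled out for its high values in these data, so a fall without it was partly fixed by that choice. The share of all genes that changed sign was not counted.

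Levels are given as FPKM, the authors' value per kilobase of gene model, scaled to the library's total. S100A6, a cytosolic S100 protein that binds the ubiquitin ligase adaptor CACYBP, had the highest FPKM of the members. Its FPKM was 459, 565 and 432 in TGFb 1, 2 and 3, and 387, 410 and 610 in TGFb_TFA 1, 2 and 3. The highest and the lowest of these values both lay in the TGFb_TFA group, which left a log2 fold change of 0.01 (SE 0.25, 95% interval -0.59 to 0.60). S100A6 stood apart from the next gene in order of level, since its lowest library lay above the highest of S100A14.

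S100A14, an S100 protein of epithelia, had an FPKM of 249.97, 312 and 245 in TGFb 1, 2 and 3 and of 236, 236 and 328 in TGFb_TFA 1, 2 and 3. It again stood highest in TGFb_TFA 3 and second in TGFb 2, with a log2 fold change of 0.04 (SE 0.22). ANXA2 followed, with a range that overlapped that of S100A14 but not that of S100A10, though S100A14 was above ANXA2 in every library. Below ANXA2, the ranges of neighbours overlapped from S100A10 through ANXA1, S100P, ANXA5, S100A11, S100A16 and ANXA3 to S100A4. Taken library by library, S100A11 was always above S100A16, S100A16 above ANXA3 and ANXA3 above S100A4. The other neighbours in this stretch changed order between libraries. Genes further apart in it had separate ranges: every library of S100A10 lay above every library of S100A11, S100A16, ANXA3 and S100A4. ANXA7, ANXA4 and the pair S100A13 and ANXA6 each formed a step apart from the genes above and below. A last expressed group held ANXA9, S100A5, ANXA11 and S100A2, whose neighbouring ranges overlapped, and S100A3 stood below it at a mean of 2.36 FPKM.

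**Figure D1:**
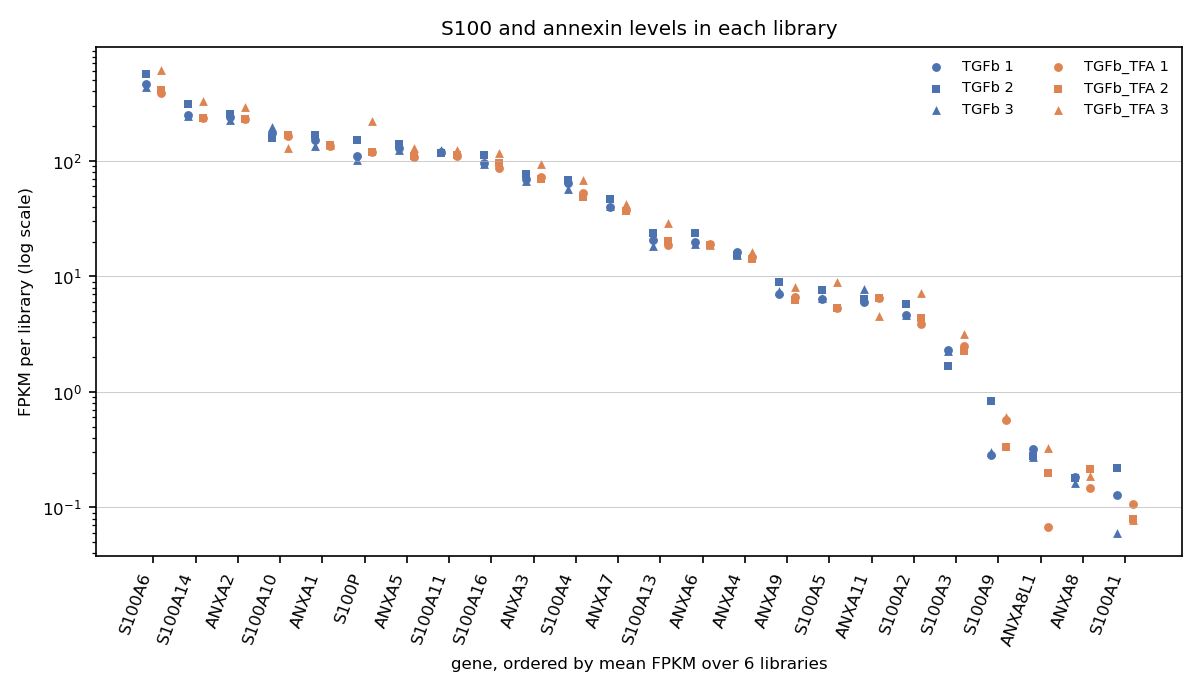
FPKM (log scale) of the 24 tested members in each of the 6 libraries, with TGFb in blue, TGFb_TFA in orange and the replicate number as the marker shape. The members span from S100A6 at a mean of 477 FPKM to S100A1 at 0.112, the 2 colours overlap for every gene, and the orange triangle (TGFb_TFA 3) is the highest point for S100A6, S100A14 and S100P.

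Several members stayed at or near 0. S100A8 and S100A9 encode the subunits of calprotectin, an antimicrobial protein of neutrophils. S100A9 had an FPKM of 0.284 to 0.833 over the 6 libraries, on 13 to 36 estimated counts. S100A8 was listed at 0 in 4 libraries, at 0.103 in TGFb 1 and at 0.177 in TGFb_TFA 3. S100Z and ANXA10 had a value above 0 in TGFb 3 only, at 0.0465 and 0.0498 FPKM. S100A8, S100Z and ANXA10 were below the filter on low counts and were not tested. ANXA8, ANXA8L1 and S100A1 were tested but stayed below 1 FPKM in every library.

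The order of levels depended on the length by which a gene was divided. In 68.5% of 8435 well-covered genes, the ratio of estimated count to FPKM was proportional to the joined length of all annotated exons within 1%, and in 90.4% within 10%. For most genes the deposited FPKM thus spreads the reads over every exon of every isoform. ANXA2 has 8808 such bases, but its typical coding transcript, the median over its basic annotated ones, has 1444. Scaled to the typical transcript, ANXA2 came first among the members at 1496 FPKM and S100A6 next at 688. ANXA1 followed at 343, then S100A14 at 320 and ANXA5 at 265. S100P, whose annotated exon and transcript lengths are both 471 bases, was 138 on either scale. Differences between groups do not use this length.

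ANXA2 also has a processed copy elsewhere in the genome, ANXA2P2, an intronless gene on chromosome 9 (GRCh38, 33624274 to 33625293, plus strand). It aligned with the ANXA2 transcript over 1020 bases with 16 mismatches and 0 gaps, an identity of 98.4%. The first 120 aligned bases start at the ATG of the ANXA2 reading frame. They are shown because a read within this stretch that misses the mismatch cannot be placed in 1 of the 2 genes by its letters. The mismatch is in capitals.
ANXA2: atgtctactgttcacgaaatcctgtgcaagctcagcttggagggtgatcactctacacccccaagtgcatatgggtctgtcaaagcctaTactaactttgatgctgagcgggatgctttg
ANXA2P2: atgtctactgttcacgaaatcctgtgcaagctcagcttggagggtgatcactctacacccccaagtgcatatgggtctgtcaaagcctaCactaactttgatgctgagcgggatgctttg

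The ANXA2P2 row had an FPKM of 119.6, 128 and 107 in TGFb 1, 2 and 3 and of 116, 122 and 154 in TGFb_TFA 1, 2 and 3. It held 5.20% to 5.78% of the estimated counts of both rows together in the 6 libraries, a share that moved little from library to library. How many reads of either gene were placed in the other row was not measured. The level of ANXA2 is thus uncertain by an unknown amount, and the ANXA2P2 row cannot be read as expression of the copy. With both rows summed, the log2 fold change was 0.12 (SE 0.18), as it was for ANXA2 alone. ANXA8 and ANXA8L1 are a second pair of near copies, with 99.7% identity over 1724 bases, and the split of reads between them is uncertain.

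ANXA2 itself had an FPKM of 239, 254 and 225 in TGFb 1, 2 and 3 and of 229, 231 and 293 in TGFb_TFA 1, 2 and 3. Its highest library was TGFb_TFA 3 and the other 5 lay between 225 and 254. S100A10, its partner, had an FPKM of 173, 157 and 195 in TGFb 1, 2 and 3 and of 166, 168 and 130.3 in TGFb_TFA 1, 2 and 3. S100A10 was lowest in the very library where ANXA2 was highest, and it was fitted at a log2 fold change of -0.15 (SE 0.13, 95% interval -0.45 to 0.14). The ratio of ANXA2 to S100A10 estimated counts was 12.01, 14.1 and 10.03 in TGFb 1, 2 and 3, and 12.04, 11.98 and 19.6 in TGFb_TFA 1, 2 and 3. The first 2 TFA libraries were therefore inside the range of the TGFb libraries and TGFb_TFA 3 was above it.

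**Figure D2:**
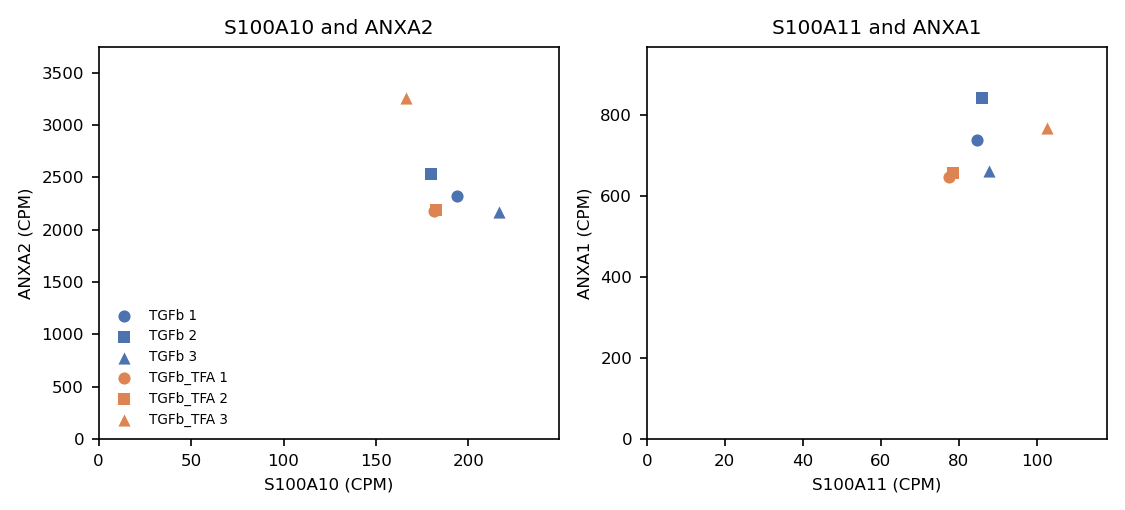
Depth-scaled counts (CPM) of each S100 partner against its annexin in the 6 libraries, both axes from 0, for S100A10 with ANXA2 on the left and S100A11 with ANXA1 on the right. TGFb_TFA 3 is the highest library for ANXA2 (3258 CPM) and the lowest for S100A10 (166 CPM), while for S100A11 it is the highest (103 CPM).

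In FPKM, S100A11 had the narrowest spread of the abundant S100 genes. Its values were 118, 117 and 123 in TGFb 1, 2 and 3 and 110.4, 113 and 125 in TGFb_TFA 1, 2 and 3. S100A11 was fitted at a log2 fold change of 0.00 (SE 0.15, 95% interval -0.34 to 0.34). ANXA1, which is known as a mediator of glucocorticoid action and an inhibitor of phospholipase A2, had an FPKM of 150.2, 167 and 136 in TGFb 1, 2 and 3. It had 134, 137 and 137 in TGFb_TFA 1, 2 and 3, a group that reached above only the lowest TGFb library. The log2 fold change of ANXA1 was -0.12 (SE 0.14, 95% interval -0.45 to 0.22), and it was -0.02 without TGFb 2 and -0.23 without TGFb 3.

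Among the other S100 genes with a known link to migration, S100P had the largest fitted difference of the abundant members. S100P, which binds the receptor AGER and the membrane linker ezrin (EZR), had an FPKM of 111, 153 and 101 in TGFb 1, 2 and 3 and of 119.7, 120.4 and 221 in TGFb_TFA 1, 2 and 3. Its log2 fold change was 0.40 (SE 0.33, 95% interval -0.37 to 1.17), and it was -0.07 (SE 0.19) without TGFb_TFA 3. S100A4, which binds non-muscle myosin heavy chain and is also widely used as a fibroblast marker, had an FPKM of 63.9, 68.6 and 57.2 in TGFb 1, 2 and 3. It had 52.9, 48.4 and 67.7 in TGFb_TFA 1, 2 and 3, so the 2 lowest and the second highest library were all TFA libraries, and its log2 fold change was -0.12 (SE 0.21).

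S100A16 had a mean FPKM of 100.4 ± 10.1 (SD, n = 3) in TGFb and 99.3 ± 15.0 in TGFb_TFA. S100A13, which takes part in the export of fibroblast growth factor 1, had 21.0 ± 2.89 against 22.6 ± 5.38. S100A2, known from squamous epithelium, had 5.02 ± 0.623 against 5.15 ± 1.78. For all 3 genes, and for S100A5 at 6.83 ± 0.745 against 6.505 ± 2.04, the spread was wider in the TGFb_TFA group and the difference of the means was smaller than either SD. S100A3, known from the hair cuticle, had the smallest unadjusted p of all members, 0.187 in edgeR's quasi-likelihood test (adjusted p = 0.9997). Its FPKM was 2.31, 1.69 and 2.24 in TGFb 1, 2 and 3 and 2.49, 2.26 and 3.15 in TGFb_TFA 1, 2 and 3.

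Of the remaining annexins, ANXA5, the annexin used as a probe for phosphatidylserine on dying cells, had an FPKM of 129, 139 and 124 in TGFb 1, 2 and 3. It had 109, 111 and 129 in TGFb_TFA 1, 2 and 3, with a log2 fold change of -0.12 (SE 0.16). TGFb_TFA 1 and 2 lay below every TGFb library, and TGFb_TFA 3 lay among them. ANXA3 had 71.8 ± 5.16 (SD, n = 3) in TGFb and 78.3 ± 12.9 in TGFb_TFA. ANXA7 had 42.4 ± 4.17 against 39.0 ± 2.63 and ANXA6, known for its doubled annexin core, had 21.0 ± 2.59 against 18.8 ± 0.250. ANXA4 had 15.6 ± 0.598 against 15.1 ± 1.12, and ANXA9 had 7.82 ± 0.981 against 6.99 ± 0.909. ANXA11, which tethers RNA granules to lysosomes, had an FPKM of 6.05, 6.38 and 7.73 in TGFb 1, 2 and 3 and of 6.45, 6.46 and 4.49 in TGFb_TFA 1, 2 and 3. It was the annexin with the smallest unadjusted p, 0.238 in edgeR's quasi-likelihood test.

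Over the family, the median fitted log2 fold change was 0.03 for the 13 tested S100 genes, with 9 above and 4 below 0. It was -0.12 for the 11 tested annexins, with 3 above and 8 below 0. The median over all genes tested was 0.01, and 48.1% of all genes were fitted below 0. The fitted values ran from -0.59 (S100A1) to 0.40 (S100P) among S100 genes and from -0.46 (ANXA8L1) to 0.17 (ANXA3) among annexins. The lowest value of each family rested on few counts and on single libraries: S100A1 was -0.04 without TGFb 2 and -0.99 without TGFb 3, and ANXA8L1 was -1.16 without TGFb_TFA 3 and -0.05 without TGFb_TFA 1. The 95% interval of each tested member included 0, so this comparison does not show that the members were equal in the 2 groups. The narrowest interval, that of S100A10, was 0.59 wide on the log2 scale and the widest, that of S100A9, was 2.97 wide. In bulk RNA, fewer cells with a transcript and less transcript per cell cannot be told apart.

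**Figure D3:**
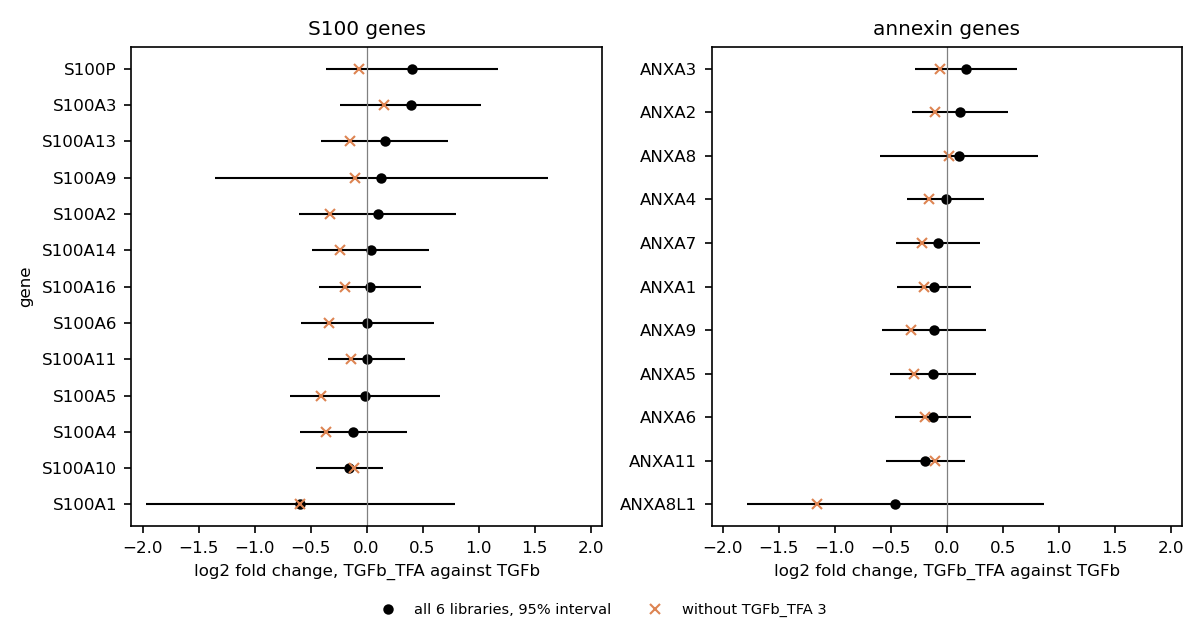
Fitted log2 fold change of TGFb_TFA against TGFb for the 13 tested S100 genes (left) and 11 tested annexins (right), with black points and bars for the estimate and 95% interval over all 6 libraries and orange crosses for the estimate without TGFb_TFA 3. All bars cross 0, and all crosses but those of S100A3 and ANXA8 lie below 0.

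In CPM, TGFb_TFA 3 was the highest library for 10 of the 13 tested S100 genes and 6 of the 11 tested annexins. It was the highest of the 6 libraries for 28.6% of all genes tested. It was the lowest for S100A10 and ANXA11, against 29.8% of all genes. The order in FPKM differed for some members. There S100A4 and ANXA5 were highest in TGFb 2, ANXA4 in TGFb 1 and ANXA8 in TGFb_TFA 2, and ANXA6 was lowest in TGFb_TFA 3. Among the 11 S100 genes with a mean of at least 1 FPKM, the median difference from the mean of the 6 libraries was 0.51 (log2) in TGFb_TFA 3. It was -0.07, 0.20 and -0.12 in TGFb 1, 2 and 3 and -0.23 and -0.20 in TGFb_TFA 1 and 2. The 9 annexins at that level had a median of 0.24 in TGFb_TFA 3 and of 0.19 in TGFb 2, and between -0.16 and -0.04 in the other 4. The 2 libraries that stood high for both families were thus in different groups, and the members held 0.694% and 0.658% of all estimated counts in them, against 0.554% to 0.595% in the others.

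Transcript length moved with these libraries. In TGFb_TFA 3, the tenth of genes with the shortest typical transcripts had a median difference of 0.22 (log2) and the tenth with the longest -0.40. In TGFb 2 the same medians were 0.06 and -0.17, and the other 4 libraries had the opposite slope, from -0.11 to -0.05 for the shortest and from 0.10 to 0.20 for the longest. S100 transcripts are short, with a median of 608 bases among the tested genes, and annexin transcripts have a median of 1861. With offsets that removed each library's trend along length, the S100 median in TGFb_TFA 3 went from 0.51 to 0.21 and the annexin median from 0.24 to 0.16. A part of the rise in this library therefore moved with length and a part remained with the offsets. In TGFb_TFA 3, S100P went from 0.90 to 0.50 with the offsets, and S100A10 moved further from its own mean, from -0.16 to -0.45. With the offsets these were the highest and lowest values of the expressed S100 genes there. S100A11 went from 0.26 to -0.11. ANXA11, whose typical transcript is long at 4627 bases, went from -0.29 to 0.03 with the offsets.

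**Figure D4:**
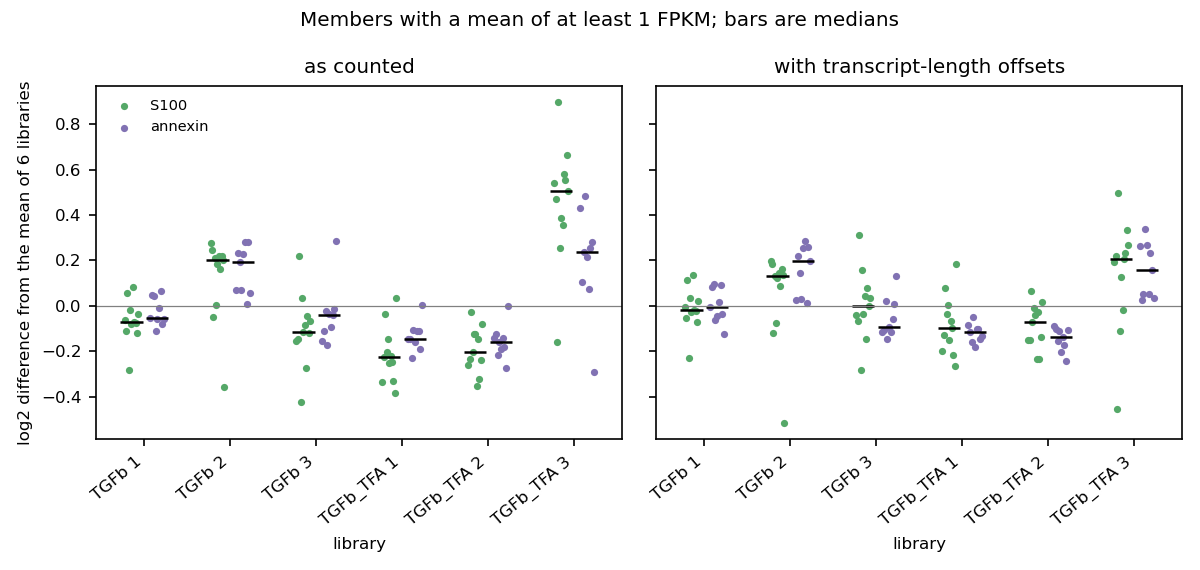
Log2 difference of each expressed member from its own mean over the 6 libraries, as counted (left) and with transcript-length offsets (right), for 11 S100 genes (green) and 9 annexins (purple), with black bars for medians. TGFb_TFA 3 and TGFb 2 stand above 0 for both families, and the S100 median in TGFb_TFA 3 falls from 0.51 to 0.21 with the offsets.

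Without TGFb_TFA 3, 12 of the 13 S100 genes and 10 of the 11 annexins were fitted below 0, with medians of -0.19 and -0.20. S100A3 and ANXA8 were the exceptions. The median over all genes tested in that fit was 0.02. S100A4 was then fitted at -0.37 (SE 0.13) and ANXA5 at -0.30 (SE 0.10), the 2 members with an unadjusted p under 0.05, against 2.64% of all genes tested. Neither was called in edgeR's quasi-likelihood test (adjusted p = 0.9992). With TGFb 2 left out as well, which leaves 2 libraries a group, 10 S100 genes and 9 annexins were below 0. The medians were -0.10 and -0.12, against 0.004 over all genes tested. S100A4 at -0.29 (SE 0.09), ANXA5 at -0.23 (SE 0.06) and S100A6 at -0.19 (SE 0.07) then had an unadjusted p under 0.05, against 3.34% of all genes, and no member was called. With TGFb 1 left out in place of TGFb 2, S100A4 at -0.38 (SE 0.15) and ANXA5 at -0.33 (SE 0.12) had such a p, against 4.41% of all genes, and the lowest adjusted p of a member in edgeR's quasi-likelihood test was 0.887. The libraries left out were chosen from these data, so these values describe how far the result rests on 1 or 2 libraries and do not replace the comparison of all 6.

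Of the 15 S100 genes, 13 lie in 1 cluster on the long arm of chromosome 1 (GRCh38, from 151982915 to 153632039). S100P lies alone on chromosome 4 (6693878 to 6697170, plus strand) and S100Z on chromosome 5. The cluster held genes with very different levels side by side. S100A6 (153534599 to 153536215, minus strand) ends 931 bases before S100A5 (153537147 to 153541765, minus strand) begins, and their mean FPKM values were 477 and 6.67. S100A4, at 59.8, overlaps S100A3, at 2.36, by position on the same strand but shares no annotated exon with it. S100A9 and S100A8, at 0.487 and 0.0467, stand between S100A11 at 118 and S100A6. The annexins are not clustered in this way: the 12 genes lie on chromosomes 1, 2, 4, 5, 9, 10 and 15.

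At the other end of the cluster, S100A1 and S100A13 overlap on opposite strands and share 235 exon bases. S100A1, an S100 protein of heart and skeletal muscle, had 13 to 51 estimated counts in a library, against a mean of 21.8 FPKM for S100A13. The sources used here do not say whether the counting used strand, so the low S100A1 values are uncertain. S100A13 also shares 536 exon bases on its own strand with the noncoding gene AL162258.1, and reads there can go to either row. With overlapping and near-identical members summed, no member was called.

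**Figure D5:**
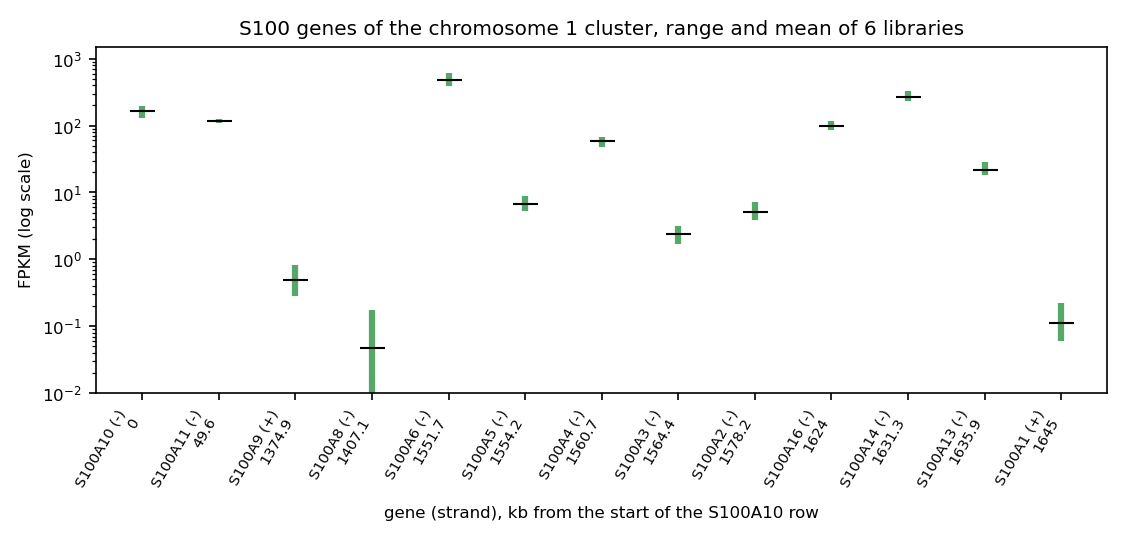
Range (green bar) and mean (black line) of FPKM on a log scale over the 6 libraries for the 13 S100 genes of the chromosome 1 cluster, in their order along the chromosome with the strand and the distance in kb. Means run from 0.0467 (S100A8) to 477 (S100A6); 4 libraries list S100A8 at 0, below the axis.

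RefSeq promoters (GRCh38.p14, 250 bases before to 50 after the gene's start) were found for 26 of the 27 members. Those of S100A6, S100A10 and ANXA2 are shown because S100A6 and ANXA2 led the order of levels and S100A10 moved against its partner ANXA2 between libraries. Capitals mark the core of the element bound by the aryl hydrocarbon receptor (GCGTG), the AP-1 site TGANTCA, the GC box GGGCGG and the TATA box TATAAA, each searched on both strands. Adjacent or overlapping GC boxes run together.
S100A6 (chr1:153535942-153536241, minus strand): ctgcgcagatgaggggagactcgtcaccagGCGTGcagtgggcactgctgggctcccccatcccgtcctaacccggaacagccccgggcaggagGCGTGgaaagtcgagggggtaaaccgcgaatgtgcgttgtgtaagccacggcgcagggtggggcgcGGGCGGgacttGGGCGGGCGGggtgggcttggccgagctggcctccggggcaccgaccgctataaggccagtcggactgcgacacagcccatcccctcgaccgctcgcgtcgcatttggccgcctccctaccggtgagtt
S100A10 (chr1:151993810-151994109, minus strand): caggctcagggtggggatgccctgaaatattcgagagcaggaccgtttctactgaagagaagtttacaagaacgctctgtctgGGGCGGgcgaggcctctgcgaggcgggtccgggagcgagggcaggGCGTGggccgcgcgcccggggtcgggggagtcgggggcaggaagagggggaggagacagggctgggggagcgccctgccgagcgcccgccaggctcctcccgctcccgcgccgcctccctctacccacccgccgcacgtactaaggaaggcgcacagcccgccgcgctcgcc
ANXA2 (chr15:60397937-60398236, minus strand): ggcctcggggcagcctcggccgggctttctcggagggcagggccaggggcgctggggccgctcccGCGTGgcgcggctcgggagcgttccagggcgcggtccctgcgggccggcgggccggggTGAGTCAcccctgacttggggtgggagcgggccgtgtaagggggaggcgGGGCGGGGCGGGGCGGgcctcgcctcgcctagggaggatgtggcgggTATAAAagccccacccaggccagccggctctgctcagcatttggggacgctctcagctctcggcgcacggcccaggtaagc

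S100A6 held 2 GCGTG cores and 3 GC boxes in this window. S100A10 held 1 of each. ANXA2 held all 4 motifs, with 1 GCGTG core, 1 AP-1 site, 3 GC boxes and 1 TATA box. GCGTG stood in 9 of the 26 member promoters, against 36.5% of 35116 RefSeq promoters of the same length, and the GC box in 12, against 45.0%. The AP-1 site stood in 3 (ANXA2, S100A2 and S100A3), against 7.71%. The TATA box stood in 8 (ANXA1, ANXA2, ANXA10, ANXA11, S100A4, S100A9, S100P and S100Z), against 11.5%. These are matches of letters and show no binding.

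Partners and related genes were counted in 5 lists, and none of their members was called. Receptors and extracellular partners had 7 tested genes of 13 listed, with 2 fitted above and 5 below 0 and a median log2 fold change of -0.08. BSG (basigin), a membrane receptor of S100A9, had the highest level at a mean of 48.8 FPKM and a log2 fold change of -0.08 (SE 0.13). ALCAM, a cell adhesion molecule, had a mean of 13.04 FPKM and -0.13 (SE 0.25). AGER, the receptor for many secreted S100 proteins including S100P, had a mean of only 0.437 FPKM and a log2 fold change of -0.68 (SE 0.40). PLAT, the tissue plasminogen activator that binds the ANXA2 complex, had a mean of 0.162 FPKM and -0.26 (SE 0.32).

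The 21 tested intracellular partners of 22 listed had a median of -0.04, with 10 above and 11 below 0. STIP1, a co-chaperone that binds S100 proteins, had the highest mean at 123 FPKM and a log2 fold change of 0.04 (SE 0.15). EZR had an FPKM of 93.6, 110.5 and 98.0 in TGFb 1, 2 and 3 and of 88.4, 82.4 and 75.4 in TGFb_TFA 1, 2 and 3. The groups did not overlap for EZR, but its log2 fold change of -0.27 (SE 0.13) was not called. SUGT1, a co-chaperone that binds S100A6, was fitted at 0.32 (SE 0.19).

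All 19 genes of calcium-dependent membrane repair were tested, with 7 above and 12 below 0 and a median of -0.04. CHMP4B, a subunit of the ESCRT-III filament, had a mean of 54.0 FPKM and a log2 fold change of -0.08 (SE 0.13). The calpain small subunit CAPNS1 had 44.5 FPKM and -0.03 (SE 0.14). EHD1 and CAVIN1, proteins of membrane remodelling and caveolae, were fitted at -0.29 (SE 0.16) and -0.26 (SE 0.14).

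Of 28 other EF-hand calcium sensors, 25 were tested, 14 above and 11 below 0, with a median of 0.01. The calmodulin gene CALM2 had the highest level of them, a mean of 240.2 FPKM, with 231, 244 and 216 in TGFb 1, 2 and 3 and 223, 218 and 310 in TGFb_TFA 1, 2 and 3. As in S100A6, its highest library was TGFb_TFA 3. EFHD1 was fitted at a log2 fold change of -0.30 (SE 0.15), with groups that did not overlap but no call.

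The genes between S100A11 and S100A9 on chromosome 1, the fused S100 and epidermal differentiation genes, were almost silent. The 20 listed symbols give loricrin as both LOR and LORICRIN. Of them, 8 were in the table and 3 were tested: TCHH at a mean of 0.242 FPKM, HRNR at 0.106 and FLG at 0.0213. Their log2 fold changes were -0.00 (SE 0.28), -0.10 (SE 0.57) and 0.64 (SE 0.60), and none was called.

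The libraries had 60361756 to 68745953 estimated counts. The label of epithelial cells fitted most of their markers. All 11 were tested, KRT18 and KRT8 led them, and their summed FPKM was 1567 to 1864 in TGFb and 1458 to 1617 in TGFb_TFA. VIL1 was low at a mean of 0.218 FPKM and CLDN3 had 4.21. CDH1 had 10.2 FPKM in TGFb_TFA 3 and 19.2 to 27.7 in the other libraries. Markers of other cell types stayed low but some moved with the groups, and their part in the results was not tested. The summed FPKM of 10 fibroblast markers was 0.0630 to 0.367 in TGFb and 0.448 to 2.37 in TGFb_TFA. Only 6 of them were tested and none was called. COL1A1, COL1A2 and COL6A3 had an unadjusted p under 0.05 in edgeR, against 1.83% of all genes tested, and the COL1A1 groups overlapped. Genes this near 0 may have passed the filter on low counts through the TGFb_TFA libraries, so these p-values add no separate support. COL3A1, DCN, LUM and POSTN were listed at 0 in all TGFb libraries. S100A4, also used as a fibroblast marker but not among these 10, did not move in 1 direction. It had 52.9, 48.4 and 67.7 FPKM in TGFb_TFA 1, 2 and 3 and 57.2 to 68.6 in TGFb. The 8 endothelial markers summed to 1.55 to 1.99 against 2.04 to 2.38, mostly EGFL7. Of the 6 tested, 5 were fitted above 0 and CLDN5 below 0, and none was called. CDH5 was at 0 in all TGFb libraries. Of 10 squamous marker symbols, which also hold both LOR and LORICRIN, 4 were in the table. These summed to 3.31 to 3.78 against 3.90 to 4.48, mostly KRT10. Of these 4, 2 were tested. KRT5 had an unadjusted p under 0.05 in edgeR, with a log2 fold change of 0.93 (SE 0.34), but was not called. DSG3 was listed at 0 in all TGFb_TFA libraries. The 8 myeloid and lymphoid markers in the table summed to 0.518 to 0.663 against 0.346 to 0.850, with FCGR3A and MPO at 0 in all TGFb libraries.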

How the data were processed

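The deposited table gives, for each gene and library, an FPKM value and a whole-number estimated count as the authors made them. StringTie 1.3.4d, HISAT2 2.0.4, cutadapt 1.9 and GRCh38 are listed, without roles, per the submitters' processing notes. Per the labels' protocols, the poly(A) libraries were stranded by dUTP and had molecular identifiers in the adapters; the sources used here do not say how they were used. The estimated counts may exceed the number of fragments, so counts divided by 4 were tried.

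The estimated counts were tested in edgeR 4.0.16 (R 4.3.3) with filterByExpr, TMM scaling, a quasi-likelihood fit on group alone, a 2-sided test, and Benjamini-Hochberg adjustment over 18265 genes. SE is the log2 fold change over the square root of F. CPM are counts scaled by edgeR to the TMM-adjusted library size; differences from the 6-library mean used log2(CPM + 0.5). Gene models came from GENCODE 29 and promoters from RefSeq. Typical transcript length is the median of a gene's basic coding transcripts; library trends along it were removed as lowess offsets (span 0.3).

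Alternatives were DESeq2 1.42.0, limma 3.58.1 on log2(FPKM + 0.5), other filters and scalings, the replicate block, length offsets, summed rows and left-out libraries. The typical-length offsets, the sum with ANXA2P2 and the joint omission of TGFb 2 and TGFb_TFA 3 were chosen after seeing the data. The rule for members uses names and biotype only, but the families and the lists were picked with earlier results of these data known. Every member is accounted for; from each partner list the 2 highest by FPKM and the 2 with the lowest unadjusted p are named, except some that are not reported here, and EZR and CALM2 are given in full after their values were seen.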

Additional observations from a re-analysis of the deposited data

How the results depend on the processing

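No member was called under any of the 21 alternatives run. DESeq2 called 13 genes higher and 2 lower over all genes, where edgeR called 2 and 0. With the replicate number as a block, 1 gene was called higher, and the S100 and annexin medians were 0.01 and -0.11. Same-numbered libraries correlated at 0.04, -0.12 and -0.13 in their deviations from the group means. The highest correlation across the groups was 0.21, for TGFb 2 with TGFb_TFA 3, the libraries that shared the slope along transcript length. With 3 libraries a group, these values cannot show whether the numbers pair the libraries. Leaving out 1 library at a time gave 1 to 3 genes called higher, S100 medians of -0.19 to 0.15 and annexin medians of -0.20 to -0.01. With TGFb 1 and TGFb_TFA 3 left out together, 1 gene was called lower and the S100 median was -0.31.

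Many fitted differences changed sign, none of them past the threshold: most were near 0, but S100P had the highest fitted value of the members. With those 2 libraries left out, the log2 fold change was -0.10 for ANXA3, -0.17 for S100A11, -0.39 for S100A9, -0.15 for S100P, -0.12 for ANXA2, -0.24 for S100A16, -0.18 for S100A13, -0.31 for S100A14, -0.40 for S100A2 and -0.39 for S100A6. With TGFb_TFA 3 and TGFb 2 omitted the values were -0.14 for S100A11, -0.0405 for ANXA2, -0.0858 for S100A16, -0.0269 for S100A13, -0.10 for S100A14, -0.20 for S100A2 and -0.19 for S100A6. In limma-trend on log2(FPKM + 0.1), S100A11 was -0.0425, S100A16 -0.0219, S100A14 -0.0230, S100A2 -0.0081 and S100A6 -0.0702. With 0.5 added they were -0.0424, -0.0218, -0.0230, -0.0048 and -0.0702, and with 1 added -0.0422, -0.0217, -0.0229, -0.0017 and -0.0701 for S100A11, S100A16, S100A14, S100A2 and S100A6. S100A11 and S100A6 were -0.0226 and -0.0233 at a mean FPKM of at least 5, -0.0081 and -0.0040 with no filter, and -0.0110 and -0.0421 with the replicate block. S100A11 was -0.0023 in DESeq2. Offsets along the ratio of count to FPKM gave -0.0657 for S100A11, -0.0197 for S100A16, -0.0220 for S100A14, 0.0689 for ANXA4 and -0.0685 for S100A6. Offsets along typical transcript length gave -0.0814 for S100A11, -0.0386 for S100A16, -0.0359 for S100A14, -0.0223 for S100A2 and -0.0967 for S100A6. ANXA8 summed with ANXA8L1 was -0.14.

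Over the fits without 1 library, the range was -0.23 to -0.02 for ANXA1, -0.10 to 0.20 for ANXA2, -0.0639 to 0.27 for ANXA3, -0.16 to 0.0557 for ANXA4, -0.23 to -0.0055 for ANXA6, -0.23 to 0.0162 for ANXA7 and -0.32 to 0.0057 for ANXA9. It was -0.30 to -0.05 for ANXA5, 0.01 to 0.26 for ANXA8, -1.16 to -0.05 for ANXA8L1 and -0.27 to -0.10 for ANXA11. Among S100 genes it was -0.99 to -0.04 for S100A1, 0.15 to 0.51 for S100A3, -0.21 to -0.11 for S100A10, -0.14 to 0.0624 for S100A11, -0.15 to 0.30 for S100A13, -0.24 to 0.17 for S100A14, -0.19 to 0.14 for S100A16, -0.33 to 0.29 for S100A2, -0.37 to 0.0018 for S100A4, -0.41 to 0.14 for S100A5, -0.33 to 0.15 for S100A6, -0.15 to 0.81 for S100A9 and -0.0664 to 0.62 for S100P. The cause of these shifts was not tested. Estimated counts of 13 to 51 limit S100A1 and S100A9.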

Other observations

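The row of S100PBP, a nuclear protein that binds S100P, had an FPKM of 2.67, 2.45 and 2.62 in TGFb 1, 2 and 3 and of 2.99, 2.56 and 2.58 in TGFb_TFA 1, 2 and 3, so it did not stand high in TGFb_TFA 3 as S100P did. ANXA2R, which encodes a receptor for ANXA2, had 0.673, 1.11 and 0.892 against 0.572, 1.07 and 0.993 FPKM, with overlapping groups. ANXA2P1, another processed copy of ANXA2, was listed at 0.150 to 0.523 FPKM.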
